A study of Mus musculus with 19 samples.

Results

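Heart small RNA was compared between mice infused with isoproterenol and mice infused with saline, 12 of the series' 19 samples. The 6 saline and 6 isoproterenol hearts were taken by their group labels, and the remaining hearts, which received minocycline as well, were not used. All mice were male wild-type C57BL6/J animals aged 12 weeks. An osmotic minipump delivered either saline or isoproterenol at 30 mg/kg per day for 21 days, and each library is 1 mouse, named here by the animal number in its label. Isoproterenol is a beta-adrenergic agonist that makes rodent hearts enlarge and scar. The comparison asks which heart microRNAs differ after this infusion, with saline as the background, and it is described here by hairpin arm, genomic neighbourhood, host gene and abundance.

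A microRNA starts as a hairpin in a longer transcript. Drosha and Dicer cut the hairpin into a short duplex whose strands are named 5p and 3p after their side of the stem. One strand, the guide, is usually kept by an Argonaute protein, and its seed, bases 2 to 8, pairs with target mRNAs, while the other strand, the passenger, is mostly degraded. Neighbouring hairpins are often cut from 1 shared transcript, and hairpins in introns can be made from the transcript of their host gene. Arms of 1 hairpin and members of 1 cluster can therefore move together or apart. In these bulk samples fewer cells of a type and less RNA per cell cannot be told apart.

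The sequences below are those the results on arms, clusters and seeds turn on. They are printed 5′ to 3′ as the authors' deposited table lists them, in DNA letters and with the authors' length and base variants, and capitals mark the seed. Positions are from the RefSeq table on GRCm38 and host genes from GENCODE vM21. The first pair is the hairpin of miR-21a, whose 5p arm lies at chr11:86584120-86584141 in an exon of Vmp1, a gene of membrane traffic and autophagy.
miR-21a-5p: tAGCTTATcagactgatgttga
miR-21a-3p: cAACAGCAgtcgatgggctgtc
The next hairpins, miR-212 and miR-132, lie within 1 kb of each other in an intron of the transcript 1700016P03Rik, with miR-212-3p at chr11:75173443-75173464 and miR-132-3p at chr11:75173723-75173744. Their 3p arms share a seed and their 5p arms do not.
miR-212-5p: aCCTTGGCtctagactgcttact
miR-212-3p: tAACAGTCtccagtcacggcca
miR-132-5p: aCCGTGGCtttcgattgttact
miR-132-3p: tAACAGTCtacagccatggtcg
The miR-208a hairpin lies in an intron of Myh6, the gene of the alpha cardiac myosin heavy chain, with its 5p arm at chr14:54949107-54949128. It is shown for the change in its arm ratio with the lowest p-value.
miR-208a-5p: gAGCTTTTggcccgggttatac
miR-208a-3p: aTAAGACGagcaaaaagcttgt
miR-27a at chr8:84208727-84208747, outside annotated host genes, and miR-27b at chr13:63300760-63300780, in an exon of 2010111I01Rik, have the same seed in their 3p arms. The listed miR-27a-3p carries a base variant named by the authors.
miR-27a-5p: aGGGCTTAgctgcttgtgagca
miR-27a-3p: tTCACAGTggctaagttccga
miR-27b-3p: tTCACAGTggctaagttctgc
miR-29c-3p at chr1:195037600-195037621, in an exon of A330023F24Rik, and miR-29a-3p at chr6:31062673-31062694, outside annotated hosts, also share a seed.
miR-29c-3p: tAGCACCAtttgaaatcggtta
miR-29a-3p: tAGCACCAtctgaaatcggtt
A pair of hairpins represents the chromosome 12 clusters, with miR-127-3p at chr12:109592888-109592909 and miR-434-3p at chr12:109594565-109594586.
miR-127-5p: cTGAAGCTcagagggctctgatt
miR-127-3p: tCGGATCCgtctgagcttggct
miR-434-5p: gCTCGACTcatggtttgaacca
miR-434-3p: tTTGAACCatcactcgactcct
The last set shares a seed although its members moved in opposite directions. miR-34a-5p lies at chr4:150068473-150068494 and miR-34b-5p at chr9:51103610-51103632.
miR-34a-5p: tGGCAGTGtcttagctggttgt
miR-34b-5p: aGGCAGTGtagttagctgattgt
miR-34c-5p: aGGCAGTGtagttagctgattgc

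More entries reached 10 reads on average in isoproterenol hearts than in saline hearts, while total reads and the share of the dominant muscle microRNA overlapped between groups. The table lists 595 entries, which are mature microRNAs, their length variants, 41 predicted microRNAs and 26 other precursor pieces. Libraries held 4188761 to 5614809 listed reads in saline hearts and 4230053 to 6107141 in isoproterenol hearts, a difference of 420610 in the mean (exact permutation test, two-sided, p = 0.264, adjusted 0.352). An exact permutation test of 6 against 6 cannot go below p = 0.00216. Entries with at least 10 reads numbered 332 to 365 in saline hearts and 364 to 372 in isoproterenol hearts, so the groups overlapped only at their edges. The means were 346.0 ± 10.9 and 368 ± 2.66 entries (SD, n = 6 each; exact permutation test, two-sided, p = 0.00433, adjusted over 3 versions 0.0130). With reads scaled to equal totals first, the means were 346.5 and 362.5 (exact permutation p = 0.0368), and with trimmed mean scaling 348.0 and 361.5 (exact permutation p = 0.0130, adjusted 0.0195). The difference was thus 22.3 entries in raw reads and 13.5 under the trimmed mean. This count was chosen after the data were seen.

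miR-1a-3p, which restrains growth genes in heart and skeletal muscle, took 42.8% ± 6.73 in saline hearts and 39.4% ± 5.58 in isoproterenol hearts (SD, n = 6 each; exact permutation test, two-sided, p = 0.377, adjusted over 4 values 0.377). Isoproterenol heart 951 held 28.3%, below every other heart, and the other isoproterenol hearts held 40.3% to 43.3%. Entries outside the 10 most abundant took 25.3% ± 3.11 in saline hearts and 28.2% ± 3.13 in isoproterenol hearts (SD, n = 6 each; exact permutation test, two-sided, p = 0.130, adjusted over 4 values 0.260). Without heart 951 the difference fell from 2.90 to 1.71 percentage points. Passenger arms took 4.22% ± 0.191 in saline hearts and 3.97% ± 0.199 in isoproterenol hearts (SD, n = 6 each; exact permutation test, two-sided, p = 0.0390, adjusted over 4 values 0.156) of the reads of the hairpins tested for both arms. That lower passenger share did not pass after adjustment, and it passed without isoproterenol heart 948 (difference -0.316, adjusted p = 0.0346). None of these 4 values, totals included, passed in all 12 hearts.

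**Figure D1:**
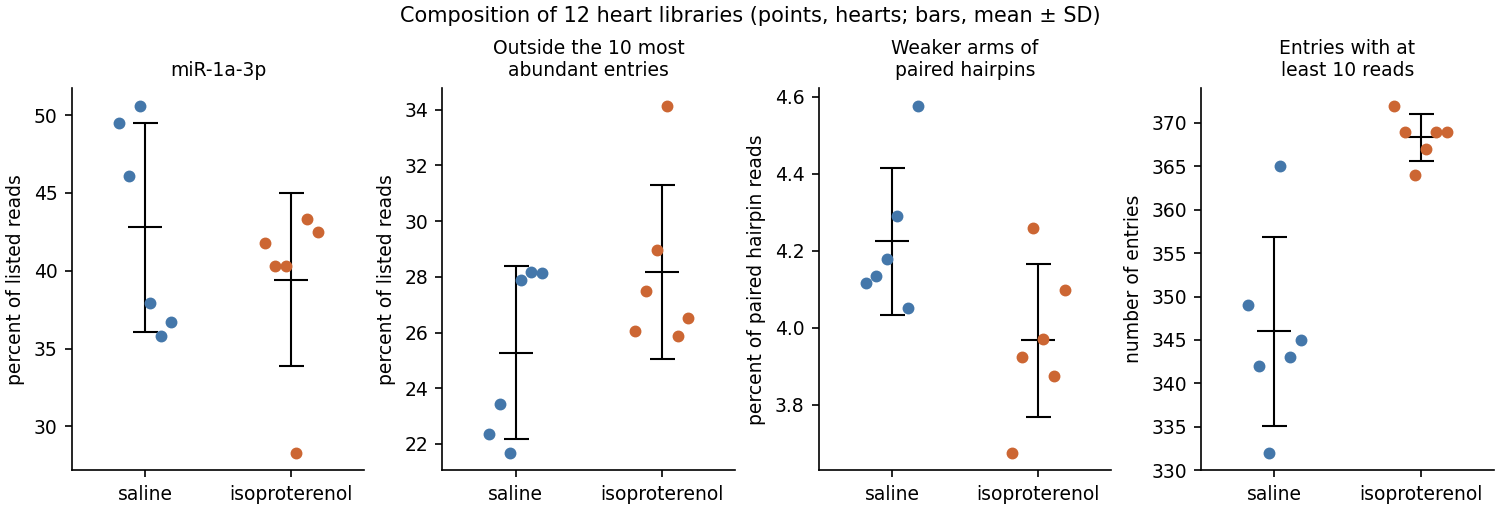
Share of listed reads from miR-1a-3p, share from entries outside the 10 most abundant, share of passenger (weaker) arms among reads of paired hairpins, and number of entries with at least 10 reads, for each of 6 saline and 6 isoproterenol hearts. Points are hearts and bars are mean ± SD; the count of entries shows the least overlap, at 332 to 365 against 364 to 372.

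Of 356 entries with at least 10 scaled reads in 6 or more hearts, 75 were higher (21.1%) and 57 lower (16% of those tested) with isoproterenol by limma at an adjusted p below 0.05, 37.1% in all. Scaled reads are reads after scaling by a trimmed mean of log ratios, and "called" means past that threshold. The groups did not overlap for 55 entries (15.4%). The median log2 fold change of all tested entries was 0.01, and scaling to total listed reads moved it to 0.18. Scaling to totals called 78 higher (21.9%) and 5 lower (1.4%), 23.3% of those tested, so that 94% of calls were higher against 56.8% under the trimmed mean, and 72 of the 75 and 5 of the 57 kept their call. With miR-1a-3p left out of the totals, 87 were higher (24.4%) and 26 lower (7.3%), 31.7% in all with 77% of calls higher, and the median was 0.10. By median-of-ratios factors 74 of 357 entries were higher (20.7%) and 64 lower (17.9%), 38.7% in all, and kept 74 of the 75 and all 57. Changes below are relative to the trimmed mean. Lower calls therefore rest on that scaling more than higher calls do.

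Under the trimmed mean, higher calls outnumbered lower ones among rare entries and lower calls outnumbered higher ones among abundant entries. Entries of 10 to under 100 mean scaled reads held 31 higher and 6 lower calls among 131 tested, with a median log2 fold change of 0.19. Many of these higher calls come from 1 region, the chromosome 12 clusters described below. Those clusters hold 30 tested entries with a median of 42.0 mean scaled reads, and 26 of the 30 were higher. The class was not recounted without them. Entries of 100 to under 1000 reads held 25 higher and 14 lower among 115, with a median of -0.01. The order turned at 1000 to under 10000 reads, where 14 were higher and 27 lower among 68 and the median was -0.14. Entries of 10000 to under 100000 reads held 4 higher and 8 lower among 32 (median -0.05), and the 9 most abundant entries, at 100000 reads or more, held 1 higher and 2 lower (median -0.14). Scaling to totals turned the medians of the more abundant classes positive, at 0.03, 0.12 and 0.03, and that of the rarest class was 0.36. At 1000 to under 10000 reads it called 12 higher and 2 lower. A change of scaling shifts all entries by nearly the same amount, so it moves the signs of these medians and not the distance between them. Differences are less precise for rare entries: the median SE was 0.28 at 10 to under 100 reads and 0.08 at 1000 to under 10000 reads.

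In reads, the rare classes weigh little. Entries of 10 to under 100 reads went from 0.0873% ± 0.0183 to 0.111% ± 0.0152 of listed reads and those of 100 to under 1000 from 0.767% ± 0.117 to 0.896% ± 0.124 (SD, n = 6 each). Entries of 10000 to under 100000 reads went from 21.8% ± 2.43 to 24.1% ± 2.63, and the 9 most abundant from 72.8% ± 3.19 to 70.0% ± 3.34. With miR-1a-3p left out of the denominator, the class of 10000 to under 100000 reads stood at 38.1% ± 0.382 and 39.8% ± 0.931. These shares were not tested.

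**Figure D2:**
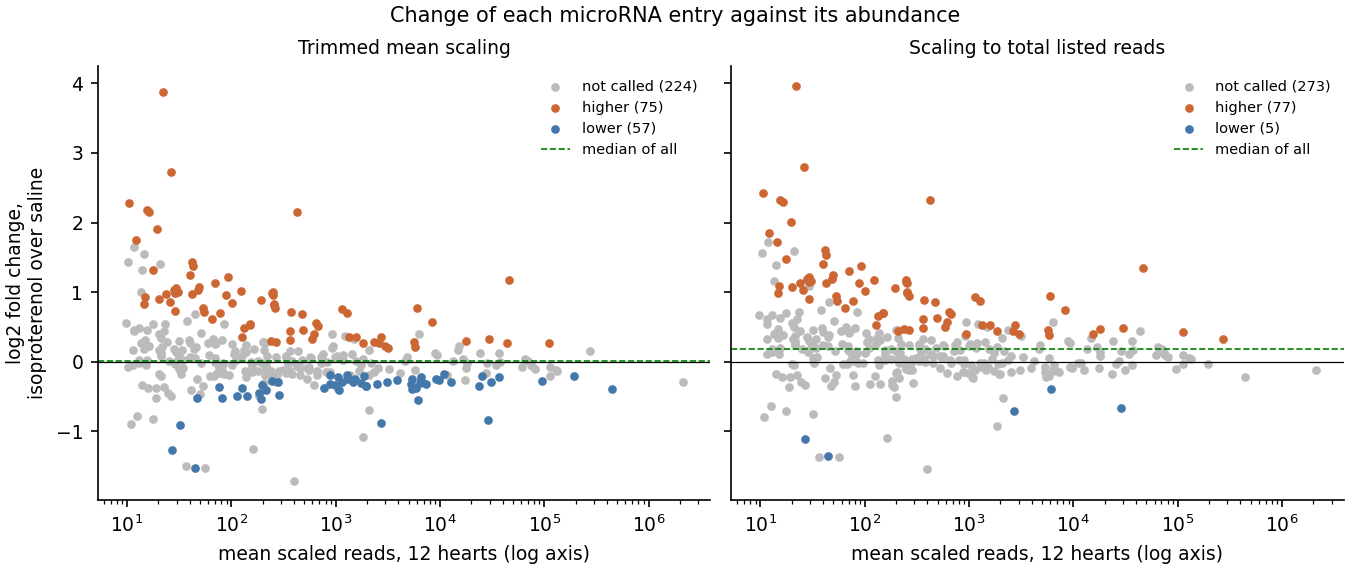
Log2 fold change of isoproterenol over saline against mean scaled reads of 12 hearts (log axis) for each entry tested, under trimmed mean scaling (left) and scaling to total listed reads (right). Colours mark calls and the dashed line the median of all entries; 57 lower calls on the left become 5 on the right, where 355 of the 356 entries are tested and 77 of the 78 higher calls fall among those plotted.

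Per 1000000 listed reads, 58189 reads moved from entries that lost to entries that gained, by difference of group means. Muscle microRNAs made up most of the loss. miR-1a-3p went from 427799 ± 67302 to 394301 ± 55767 reads per 1000000 and miR-133a-3p, another microRNA of striated muscle, from 96362 ± 19802 to 82139 ± 12227 (SD, n = 6 each), together 82.0% of all reads lost. Isoproterenol heart 951 carried much of the first: without it miR-1a-3p fell by 11257 reads per 1000000 where over all hearts it fell by 33498, and both together made up 62.7% of all reads lost. With miR-499-5p, a microRNA from an intron of the myosin gene Myh7b, which went from 7015 ± 1169 to 4395 ± 418, they made up 86.5% over all 12 hearts. In this unit only miR-499-5p of these was called lower; under the trimmed mean miR-133a-3p was called as well (log2 fold change -0.39, SE 0.09, adjusted p = 0.00649), and miR-1a-3p was not (log2 fold change -0.29, SE 0.21, adjusted p = 0.311). miR-30d-5p and miR-378a-3p followed with losses of 1259 and 926 reads per 1000000.

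In this unit 398 entries gained and 197 lost, a split that comes with the scaling. With miR-1a-3p left out of the totals 367 gained and 227 lost, and under the trimmed mean 185 of the 356 tested entries were positive and 171 negative. miR-143-3p, a smooth muscle microRNA, went from 48924 ± 7142 to 61139 ± 5492 reads per 1000000, miR-21a-5p, known from fibroblasts and growth signalling, from 5270 ± 689 to 13756 ± 3651, and miR-27b-3p from 19103 ± 2185 to 25777 ± 3048 (SD, n = 6 each), together 47.0% of reads gained. miR-23a-3p and miR-23b-3p, which share a seed and can share reads, gained 2642 and 2060, and let-7g-5p 1944. miR-21a-5p read 26616, 27750 and 29128 scaled reads in saline hearts (lowest, median and highest) and 41655, 63122 and 80283 in isoproterenol hearts, with no overlap. miR-27b-3p read 88065, 104884 and 110603 scaled reads in saline hearts (lowest, median and highest) and 113755, 121021 and 126120 in isoproterenol hearts, again with no overlap but close at the edges (log2 fold change 0.26, SE 0.07, adjusted p = 0.0116). The call of miR-143-3p rested on the scaling: its log2 fold change was 0.16 under the trimmed mean (adjusted p = 0.287) and 0.33 scaled to totals (adjusted p = 0.0258). let-7g-5p was not called under either scaling (0.04 and 0.21).

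At the other end of the scale, 5 entries were listed at 0 in all 6 saline hearts and had reads in at least 5 isoproterenol hearts, and no entry showed the reverse. They are miR-673-5p, miR-1193-3p, miR-376b-5p, miR-342-5p and miR-34c-3p. The highest count among them was 16 reads, and too few hearts reached 10 reads for a test. A 0 in this table can stand for a few reads, since 98 of the 7140 cells of these 12 libraries hold 1 to 4 reads and 2007 hold 0.

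No shift between the arms of a hairpin was called, and no hairpin had arms called in opposite directions. Both arms were listed for 150 hairpin names, and both passed the read filter for 95. No arm ratio was called by limma (0 of 95, 0%; lowest adjusted p = 0.217), 13 had an unadjusted p below 0.05, 6 towards the 5p and 7 towards the 3p arm, and the exact rank-sum test also called 0, with 6 at an unadjusted p below 0.05. The median size of a ratio change was 0.15 on the log2 scale and the median half-width of its 95% interval 0.40. For 77 of the 95 the interval lay inside -1 to 1, so a 2-fold shift in arm use lay outside it, and smaller shifts were not detectable for many. The hairpins described one by one below include 6 of these 13; the remaining 7, miR-22, miR-221, miR-330, miR-335, miR-423, miR-574 and miR-99b, had ratio changes between -0.78 and 0.46.

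Both arms were called higher for 14 hairpins and both lower for 5, and opposite calls numbered 0. Of the 14, 1 (miR-34b) had arms with at most 1 saline heart at 10 scaled reads. Others, such as miR-21a, miR-127 and miR-409, had an arm with 4 or 5 saline hearts at 10 reads. Those arms also needed isoproterenol hearts to pass the read filter. The guide, taken as the arm with more reads, was called alone for 12 higher and 11 lower hairpins, the passenger alone for 2 higher and 6 lower, and neither for 45. Guides had 26 higher and 16 lower calls and passengers 16 and 11, with median scaled reads of 1140 and 76.1, so fewer passenger calls come with fewer reads. The log2 fold changes of guide and passenger had the same sign in 72 of 95 hairpins, with r = 0.774 and rho = 0.719 across hairpins, which share libraries and scaling and are not independent.

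**Figure D3:**
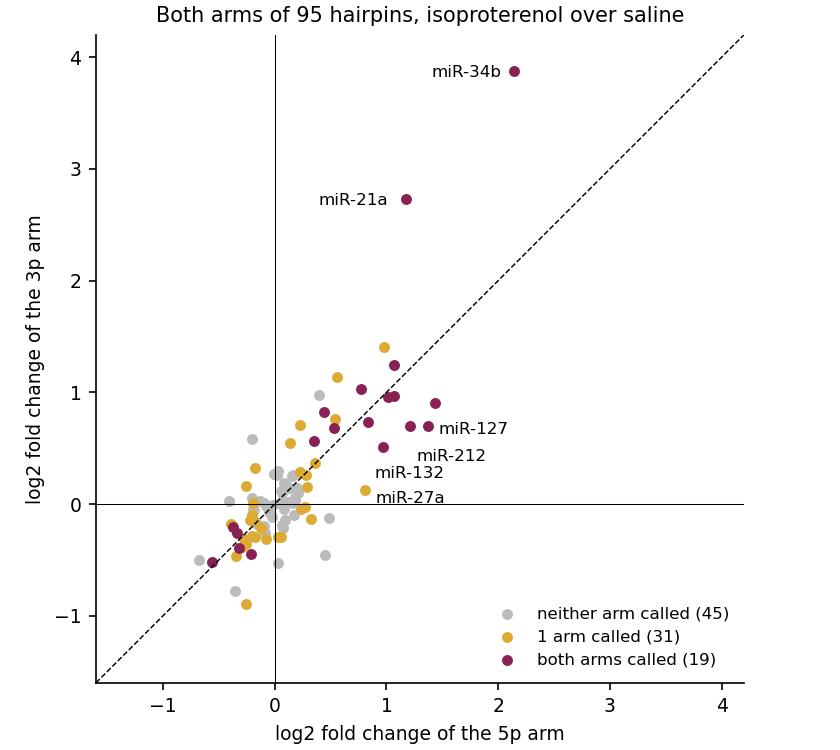
Log2 fold change of the 3p arm against that of the 5p arm for 95 hairpins, isoproterenol over saline, coloured by how many arms were called; the dashed line marks equal change. The 19 hairpins with both arms called lie in the upper right (14) or lower left (5) quadrant.

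miR-21a had both arms higher, the 3p arm from few reads. miR-21a-3p read 0, 12.6 and 21.1 scaled reads in saline hearts (lowest, median and highest) and 26.0, 40.9 and 66.5 in isoproterenol hearts, with no overlap. This rare arm went from 10.2 ± 8.54 to 42.6 ± 13.9 scaled reads (SD, n = 6 each; log2 fold change 2.73, SE 0.76, adjusted p = 0.0140). The 5p arm remained 99.93% of the hairpin's reads against 99.96% in saline hearts, and the log2 ratio of 5p to 3p changed by -1.46 (95% interval -2.89 to -0.03; limma, adjusted p = 0.343), or by -0.58 with a pseudocount of 5. That ratio rests on few reads, and some saline hearts list the 3p arm at 0. miR-34b, a p53-induced hairpin, likewise had both arms higher (2.14 for 5p and 3.87 for 3p) with a ratio change of -1.66 (95% interval -3.15 to -0.17; limma, adjusted p = 0.312) from arms of 16.3 and 22.1 mean scaled reads, which became -0.91 with a pseudocount of 5. The listed miR-34b-5p carries a base variant named by the authors and differs from the listed miR-34c-5p only in its last base. Its reads are therefore uncertain apart from those of miR-34c-5p, and so are the 5p value and the ratio. The miR-34b arms were tested only because the 6 isoproterenol hearts passed the read filter: miR-34b-5p read 3.29 to 10.2 scaled reads in saline hearts and miR-34b-3p 0 to 8.79. Entries with at most 1 saline heart at 10 scaled reads numbered 3 and could hardly fail to differ. The third is miR-431-5p, and their calls are given as a description. Other higher calls reached 10 reads in too few saline hearts to pass without the isoproterenol hearts. Examples are miR-369-3p with 2 saline hearts, miR-21a-3p, miR-134-5p and miR-494-3p with 4, and miR-127-5p with 5. For each, all 6 isoproterenol hearts reached 10 reads, so the filter favoured these higher calls too. Among lower calls, miR-200c-3p reached 10 reads in all saline hearts and in 5 isoproterenol hearts.

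miR-132 and miR-212, CREB-induced hairpins that promote cardiomyocyte growth in mice, had all 4 arms higher. miR-132-5p read 42.2, 65.6 and 72.7 scaled reads in saline hearts (lowest, median and highest) and 94.2, 117 and 144 in isoproterenol hearts, without overlap (log2 fold change 0.96, SE 0.15, adjusted p = 5.13e-04). miR-132-3p, the guide, went from 552 ± 72.9 to 790.4 ± 121 scaled reads (log2 fold change 0.51, SE 0.11, adjusted p = 0.00316), and the groups overlapped slightly. The 5p share of miR-132 reads went from 9.85% ± 1.55 to 13.1% ± 2.17 (SD, n = 6 each), and its ratio changed by 0.45 (95% interval 0.12 to 0.78; limma, adjusted p = 0.310). It was the only pair of the 95 whose ratios did not overlap between groups, and the groups nearly touched. The highest 5p share was 11.37% among saline hearts and the lowest 11.44% among isoproterenol hearts. miR-212-5p read 43.0, 51.6 and 78.7 scaled reads in saline hearts (lowest, median and highest) and 115, 123 and 152 in isoproterenol hearts, without overlap (log2 fold change 1.21, SE 0.15, adjusted p = 9.98e-05). miR-212-3p changed by 0.70 (adjusted p = 0.00233), and the ratio of the arms by 0.51 (95% interval 0.09 to 0.94; limma, adjusted p = 0.310). In both hairpins the 5p arms, which do not share a seed, had the larger estimates, but neither ratio passed adjustment.

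The lowest p among ratios belonged to miR-208a, a heart muscle hairpin. miR-208a-5p read 1249, 1435 and 1656 scaled reads in saline hearts (lowest, median and highest) and 977, 1225 and 1326 in isoproterenol hearts. miR-208a-3p read 1490, 1926 and 2515 scaled reads in saline hearts (lowest, median and highest) and 1742, 2190 and 2457 in isoproterenol hearts, so both arms overlapped between groups. The 5p arm was lower (log2 fold change -0.25, SE 0.09, adjusted p = 0.0337), and the 3p arm, the guide, was not called (log2 fold change 0.16, SE 0.13, adjusted p = 0.351). The 5p share of reads went from 42.3% ± 4.45 to 35.5% ± 3.37 (SD, n = 6 each), and the ratio changed by -0.42 (95% interval -0.68 to -0.16; limma, adjusted p = 0.217). The call on the 5p arm was lost when any 1 of saline hearts 940, 944, 947 and 956 or isoproterenol hearts 948 and 954 was left out (adjusted p up to 0.0920), and scaled to totals its log2 fold change was -0.08 without a call.

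In miR-27a too the passenger was called and the guide was not. miR-27a-5p read 147, 167 and 261 scaled reads in saline hearts (lowest, median and highest) and 208, 279 and 541.6 in isoproterenol hearts. The passenger was higher (log2 fold change 0.81, SE 0.21, adjusted p = 0.0114), while the abundant guide miR-27a-3p was not called (log2 fold change 0.12, SE 0.06, adjusted p = 0.109). The ratio changed by 0.69 (95% interval 0.24 to 1.13; limma, adjusted p = 0.217), from 0.790% to 1.31% of the hairpin's reads. For the abundant muscle hairpin miR-133a, by contrast, the interval was narrow: both arms were lower, -0.39 for 3p and -0.32 for 5p, and the ratio changed by 0.07 (95% interval -0.13 to 0.26; limma, adjusted p = 0.803). miR-378a, from the metabolic gene Ppargc1b, had both arms lower as well, at -0.20 for the guide and -0.38 for the passenger. The miR-378a-3p call was lost without any 1 of saline hearts 940, 944, 947 and 949 or isoproterenol hearts 941, 943, 948 and 954 (adjusted p up to 0.0971).

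No genomic cluster held calls in both directions, and most higher calls among clustered entries lay on chromosome 12. Hairpins at most 10 kb apart on 1 strand with at least 3 tested entries formed 22 clusters of 111 entries, where 42 entries were higher and 10 lower (median 0.19). Of those 42 higher calls, 26 belong to the 30 entries of 2 chromosome 12 clusters. The other 81 clustered entries held 16 higher (19.8%, near the 21.1% of all tested entries) and 10 lower, with a median of 0.05. Among 162 entries with 1 known position outside clusters, 24 were higher and 27 lower (median -0.02). Higher calls occurred in 9 clusters, lower calls in 6, no call in 7 and both directions in 0. All estimates of a cluster had 1 sign in 11 of 22 clusters. Negative medians numbered 9 under the trimmed mean and 5 scaled to totals, which shifts all entries by nearly the same amount. Members of a cluster share a transcript or libraries and are not replicates.

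The imprinted Dlk1-Dio3 region on chromosome 12, whose microRNAs are abundant in embryonic tissue and placenta, held the pair of clusters with the highest medians. In the cluster of miR-337 to miR-136 (chr12:109585818-109595387), 7 of 8 entries were higher with a median of 0.90, and in that of miR-379 to miR-410 (chr12:109709065-109743784), which includes the Mirg transcript, 19 of 22 with a median of 0.99. Without miR-431-5p, which passed the read filter through isoproterenol hearts alone, 25 of 29 were higher. Those 25 still include entries with too few saline hearts at 10 scaled reads to pass without isoproterenol hearts. Among them are miR-369-3p with 2 saline hearts, miR-134-5p and miR-494-3p with 4, and miR-127-5p, miR-299a-5p, miR-382-5p and miR-409-3p with 5. All 30 estimates were positive, and these 26 calls were 34.7% of all 75 higher calls. Leaving out each library in turn, 19 of the 26 held, 6 of 7 in the smaller cluster and 13 of 19 in the larger. In the larger the calls lost were miR-299a-5p without isoproterenol heart 941 or 948, miR-369-3p without saline heart 944 or isoproterenol heart 948 or 954, and miR-379-3p without saline heart 944 or isoproterenol heart 941, 948 or 958. miR-409-3p was lost without saline heart 944 or isoproterenol heart 941, 943, 948 or 951, and miR-382-5p without saline heart 944, 947 or 950 or isoproterenol heart 941, 943 or 948. miR-134-5p was lost without saline heart 944, 947, 950 or 956 or isoproterenol heart 941, 943, 948, 951 or 954 (adjusted p up to 0.0870, the highest of the 6). Together the 30 entries took 0.0466% ± 0.0114 of listed reads in saline hearts and 0.0926% ± 0.0198 in isoproterenol hearts (SD, n = 6 each). The saline hearts lay between 0.0358% and 0.0670% and the isoproterenol hearts between 0.0655% and 0.119%, so the lowest isoproterenol heart, 958, lay inside the saline range.

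miR-127-3p, the most abundant member of both clusters, went from 982 ± 198 to 1594 ± 286 scaled reads (log2 fold change 0.70, SE 0.14, adjusted p = 0.00233), and its passenger miR-127-5p from 24.6 ± 9.58 to 61.2 ± 12.3 scaled reads (log2 fold change 1.37, SE 0.29, adjusted p = 0.00294). miR-434-3p read 137, 177 and 199.6 scaled reads in saline hearts (lowest, median and highest) and 238, 347 and 379 in isoproterenol hearts, with no overlap (log2 fold change 0.96, SE 0.12, adjusted p = 1.01e-04). Its passenger miR-434-5p changed by 1.01 (adjusted p = 5.13e-04), close to the guide. Changes ran from 0.53 to 1.90 within the larger cluster, where miR-494-3p was at 1.90 and miR-409-5p at 1.44. In the smaller one, miR-431-5p passed the read filter through the isoproterenol hearts alone (0, 6.08 and 7.69 scaled reads in saline hearts, lowest, median and highest) and is given as a description at 1.75 and miR-433-3p, the entry not called, at 0.55 (adjusted p = 0.131). The call of miR-431-5p was lost without isoproterenol heart 948 (log2 fold change 1.29, adjusted p = 0.0619).

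**Figure D4:**
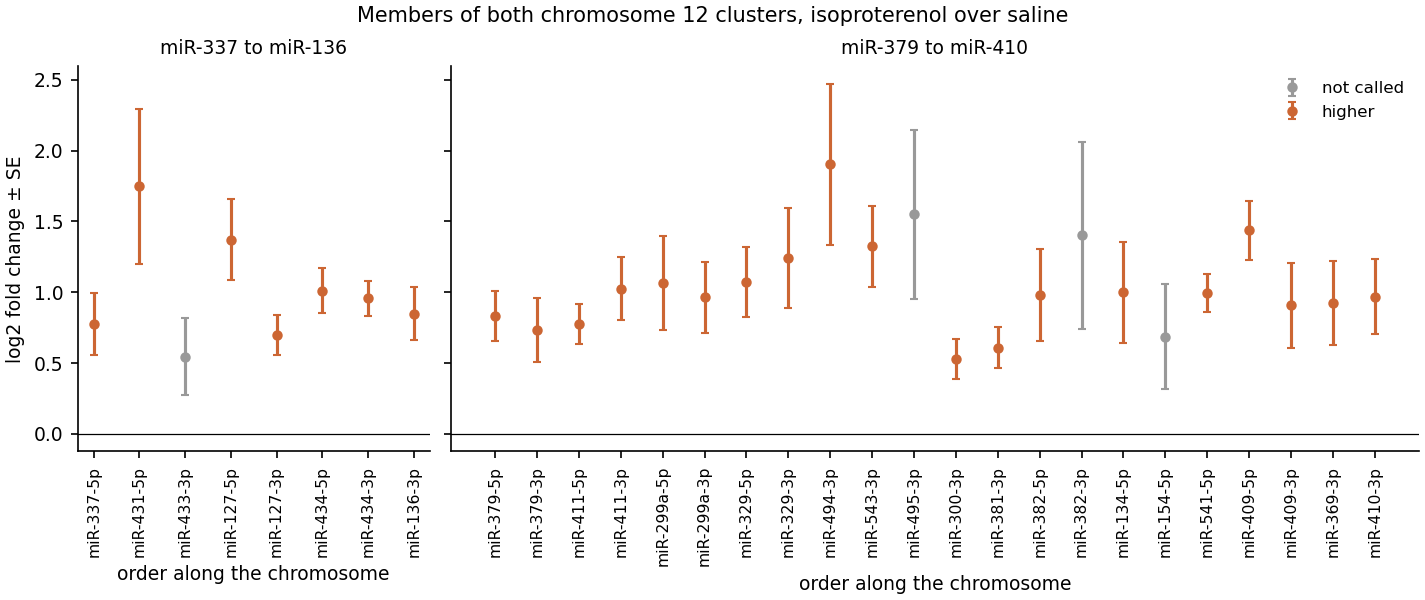
Log2 fold change ± SE of each tested entry of the miR-337 to miR-136 and miR-379 to miR-410 clusters, isoproterenol over saline, in order along the chromosome. All 30 lie above 0, and the 4 grey ones were not called.

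By heart, the median log2 deviation of the 22 entries of the larger cluster from their saline mean lay above every saline heart in 6 of 6 isoproterenol hearts. In the smaller cluster it was 0.873 to 1.16 in 5 isoproterenol hearts and 0.369 in heart 958, which lay inside the saline range of -0.179 to 0.370. Leaving out heart 958 moved the cluster's median log2 fold change to 1.002. The chromosome 12 entries are rare, with a median of 42.0 and a highest mean of 1288 scaled reads.

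Of the remaining clusters, miR-212 to miR-132 had 4 of 4 higher with a median of 0.83, and 6 of 6 isoproterenol hearts lay above all saline hearts under the trimmed mean and scaled to totals. Under the trimmed mean the same 6 of 6 held for the X-linked cluster of miR-450b to miR-322 (chrX:53048008-53054327), with 5 of 6 scaled to totals, and its change was uneven. miR-322-5p, a microRNA of the miR-15 and miR-16 seed, was higher (log2 fold change 0.36, SE 0.07, adjusted p = 0.00130), as was miR-351-5p (0.40), while the miR-450b and miR-542 entries lay between -0.08 and -0.02 without a call. The third call, miR-503-5p, was lost without saline heart 940 or isoproterenol heart 941, 951 or 958 (adjusted p up to 0.0677). In all, 3 of its 8 entries were higher (median 0.22), and saline heart 940 stood apart at -0.208 against 0.0148 to 0.106 in the other saline hearts.

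The cluster of miR-23a to miR-24-2 (chr8:84208563-84208860), with 3 of 4 higher, had a median of 0.27 and 6 of 6 isoproterenol hearts above all saline hearts, or 4 of 6 scaled to totals with 2 of 4 higher. Its paralogous cluster of miR-23b to miR-24-1 on chromosome 13 had 1 of 4 higher, namely miR-27b-3p, with miR-23b-3p outside the count for want of a matched position (median 0.17, 4 of 6 hearts above, 3 of 6 scaled to totals). miR-24-2-5p read 1549, 1680 and 1746 scaled reads in saline hearts (lowest, median and highest) and 1902, 1953 and 2346 in isoproterenol hearts, with no overlap (log2 fold change 0.27, SE 0.06, adjusted p = 0.00506). The call of miR-23a-3p (log2 fold change 0.27) was lost without any 1 of isoproterenol hearts 941, 951 and 958 (adjusted p up to 0.0576) and scaled to totals (adjusted p = 0.0555). Between paralogs such as miR-23a and miR-23b reads can be split by the authors' counting, so their separate values are uncertain. The Clcn5 cluster of miR-500 to miR-532 had all 6 estimates positive, 1 called, and 5 of 6 isoproterenol hearts above all saline hearts (median 0.29). That call, miR-501-3p, held in 4 of the 12 fits that leave out 1 library and was lost without saline hearts 944, 950 and 956 or isoproterenol hearts 941, 943, 948, 951 and 954 (adjusted p up to 0.0901).

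Among clusters with lower calls, 1 had all of its entries called. The cluster of miR-29b-2 to miR-29c on chromosome 1, microRNAs known to repress collagen genes, had 3 of 3 lower with a median of -0.34, and 5 of 6 isoproterenol hearts lay below all saline hearts under the trimmed mean but 0 of 6 scaled to totals. miR-29c-3p read 3757, 4313 and 4521 scaled reads in saline hearts (lowest, median and highest) and 2866, 3662 and 4090 in isoproterenol hearts, with some overlap (log2 fold change -0.26, SE 0.08, adjusted p = 0.0273). miR-29c-5p changed by -0.34 (adjusted p = 0.0155) and miR-29b-2-5p by -0.37 (adjusted p = 0.0421). The miR-29c-3p call was lost without saline heart 944 or 947 or isoproterenol heart 948 (adjusted p up to 0.0648), and the miR-29b-2-5p call without any 1 of saline hearts 944, 947, 949, 950 and 956 or isoproterenol hearts 941, 943, 948, 954 and 958 (adjusted p up to 0.0879). Scaled to totals no entry of this cluster was called and its median was -0.17. The cluster of miR-29a to miR-29b-1 on chromosome 6 had no call (median -0.05), and miR-29a-3p, which differs from miR-29c-3p outside the seed, was at -0.05 (SE 0.06) under the trimmed mean and 0.12 scaled to totals. The difference between these clusters was not tested.

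In the miR-30c-1 to miR-30e cluster of Nfyc, a transcription factor gene, 2 of 3 were lower (median -0.28; -0.11 scaled to totals, with neither called). The miR-30c-1-3p call was lost without any 1 of saline hearts 940, 944, 947 and 950 or isoproterenol hearts 941, 943, 948 and 951 (adjusted p up to 0.105), which leaves 1 of 3. The growth-linked clusters of miR-17 to miR-20a and of miR-25 to miR-106b had 2 of 5 and 1 of 5 lower, with medians of -0.10 and -0.19, or 0.07 and -0.02 scaled to totals with no call in either. The miR-17-5p call (adjusted p = 0.0496) held in 1 of the 12 fits that leave out 1 library, that without isoproterenol heart 951, so 1 of 5 remained in the others (adjusted p up to 0.118). The red blood cell cluster of miR-144 to miR-451a had the lowest median, -0.68, with 0 of 3 called, and saline hearts themselves ran from 1078 to 4662 scaled reads of miR-451a.

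**Figure D5:**
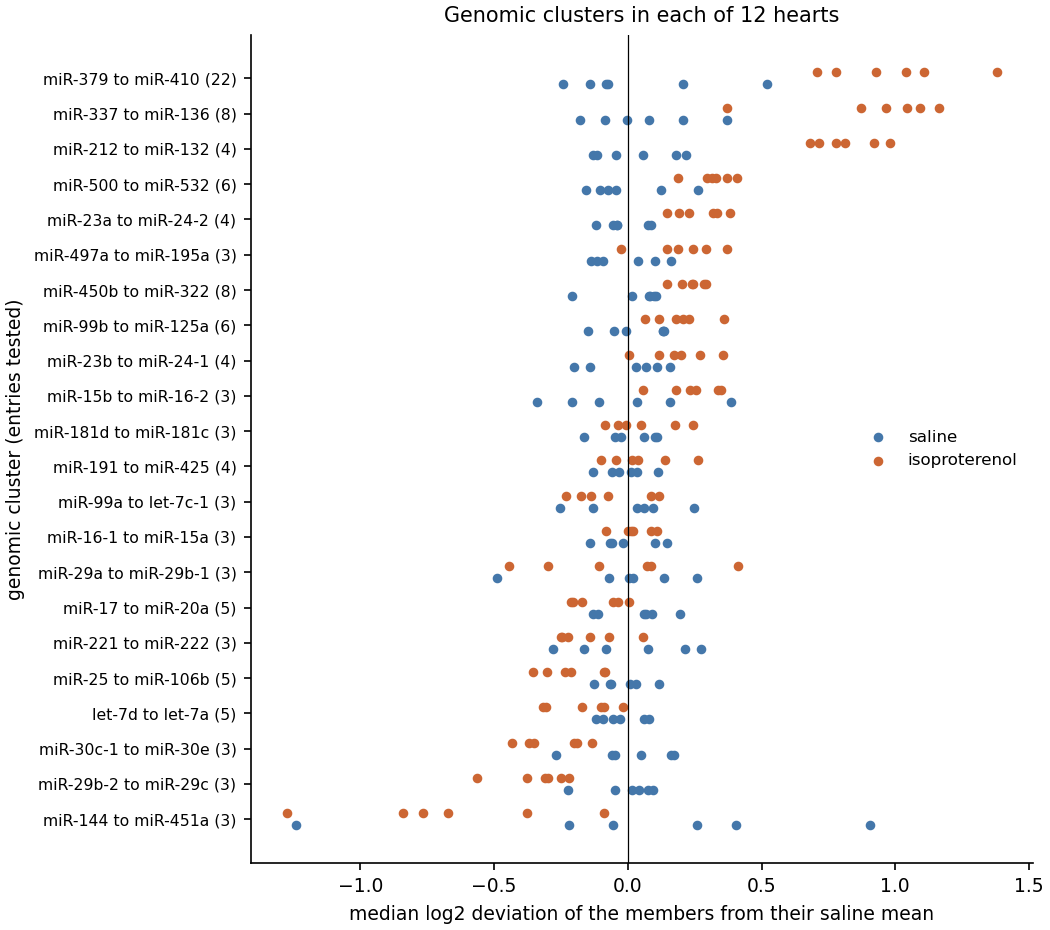
Median log2 deviation of each cluster's tested members from their saline mean, 1 point per heart, for 22 clusters ordered by median change; the number of tested entries stands beside each name. Under the trimmed mean shown, isoproterenol hearts lie above every saline heart in 6 of 6 for miR-379 to miR-410, miR-212 to miR-132, miR-23a to miR-24-2 and miR-450b to miR-322; scaled to totals the last 2 fall to 4 of 6 and 5 of 6.

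By annotation, entries outside any host gene held more higher calls than intronic or exonic ones, and chromosome 12 accounts for part of that count. Of 82 entries with no host, 36 were higher (43.9%) and 11 lower. Of 126 intronic entries 20 were higher and 16 lower, and of 65 exonic ones 10 and 10. Without the chromosome 12 clusters 17 of 61 host-free entries were higher (27.9%) and 11 lower, against 15 and 16 of 119 intronic and 8 and 10 of 63 exonic entries. The medians were then 0.01, 0.01 and 0.01. These differences were not tested.

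Of 54 host genes with at least 2 tested entries, 24 had a call and 0 had calls in both directions, beside 37.1% of all tested entries called. A host of several entries has more chances of a call than 1 entry has, so the shares of hosts and of entries are not alike. Only 17 of the 54 hold 2 or more tested hairpins, so for most the entries are arms of 1 hairpin, and only 10 hosts had at least 2 calls, 6 of them higher and 4 lower. Col27a1, a fibrillar collagen gene, hosts miR-455, whose arms were both higher: miR-455-3p read 306, 368 and 408 scaled reads in saline hearts (lowest, median and highest) and 442, 599 and 710.3 in isoproterenol hearts, without overlap (log2 fold change 0.68, SE 0.11, adjusted p = 5.96e-04), and miR-455-5p changed by 0.53 (adjusted p = 0.00164). Dnm3os, a noncoding transcript of mesenchymal cells, hosts miR-214, with miR-214-3p higher (log2 fold change 0.76, SE 0.17, adjusted p = 0.00482) and miR-214-5p at 0.54 (adjusted p = 0.0674). Among myosin hosts, miR-499-5p of Myh7b was lower, with saline hearts at 29856, 37229 and 41496 and isoproterenol hearts at 18158, 20611 and 23338 scaled reads and no overlap (log2 fold change -0.83, SE 0.09, adjusted p = 1.87e-05), while miR-208a of Myh6 had only its 5p arm called. Host mRNA was not measured in these libraries.

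Seeds decide which mRNAs a microRNA can pair with. Over all tested entries 37.1% were called, 21.1% higher and 16% lower, a rate at which many groups of entries would hold a call. Of 44 seed groups with at least 2 tested entries 30 had a call. Calls in both directions occurred in 1 of them, the seed GGCAGTG of miR-34: miR-34c-5p read 102, 153 and 188.5 scaled reads in saline hearts (lowest, median and highest) and 298, 661 and 1068 in isoproterenol hearts, and miR-34b-5p, with nearly the same listed sequence and so uncertain apart from it, was at 2.14. miR-34a-5p, from another chromosome, was lower (log2 fold change -0.22, SE 0.06, adjusted p = 0.0110). miR-34a-5p read 1059, 1116 and 1194 scaled reads in saline hearts (lowest, median and highest) and 891, 971 and 1008 in isoproterenol hearts, without overlap, and scaled to totals its change was -0.05 with no call. The fold of miR-34c-5p is larger, yet miR-34a-5p supplied more reads of this seed in most hearts, isoproterenol heart 948 being the exception at 1068 scaled reads of miR-34c-5p against 959 of miR-34a-5p.

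The seed CTGGACT of miR-378 had 4 of 4 entries lower, from miR-378a-3p at -0.20 to miR-378c at -0.29, with miR-378d at -0.25 and miR-378b at -0.24. The listed miR-378d has this seed only through a base variant named by the authors, C to A at base 6. These family members can share reads, and the 4 were between -0.12 and -0.03 without a call when scaled to totals. The miR-378b call was lost without saline heart 944 or isoproterenol heart 954 (adjusted p up to 0.0558). The seed AACAGTC of miR-132-3p and miR-212-3p had both higher, and so had TCACATT of miR-23a-3p and miR-23b-3p. The seed AGCAGCA of miR-15, miR-16, miR-195a, miR-322 and miR-497a had 3 of 6 higher, of which miR-322-5p held without each library. The miR-195a-5p call was lost without saline heart 956 or isoproterenol heart 941 or 958, and the miR-497a-5p call without saline heart 940, 944 or 947 or isoproterenol heart 941, 948, 951 or 958 (adjusted p up to 0.0749) and scaled to totals. The seed GTAAACA of the miR-30 family had 2 of 5 lower, miR-30b-5p and miR-30d-5p (log2 fold change -0.28, SE 0.10, adjusted p = 0.0386). The miR-30b-5p call was lost without saline heart 944, 947 or 950 or isoproterenol heart 943 or 948 (adjusted p up to 0.0646). The miR-30d-5p call was lost without any 1 of saline hearts 940, 944 and 947 or isoproterenol hearts 941, 943, 948 and 958 (adjusted p up to 0.105).

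Markers of cell types moved beside these results. The 6 heart muscle markers were all listed, with 0 higher and 3 lower, so the tissue label holds, and the skeletal muscle marker miR-206-3p stayed at or below 15.5 scaled reads. The fibroblast markers miR-199a-5p and miR-214-3p, 2 of 2 higher, summed to 4889 to 5532 scaled reads in saline hearts and 6400 to 10094 in isoproterenol hearts. The white blood cell markers, 4 of 5 listed, summed to 4821 to 5471 scaled reads in saline hearts and 3046 to 4042 in isoproterenol hearts, with 1 higher and 2 lower. The members went both ways: miR-223-3p of myeloid cells was higher (log2 fold change 0.45, SE 0.08, adjusted p = 9.36e-04) and miR-150-5p of mature lymphocytes was lower (log2 fold change -0.89, SE 0.09, adjusted p = 1.87e-05). The latter made up most of the sum, with 3288 to 3957 scaled reads in saline hearts and 1534 to 2367 in isoproterenol hearts. The red blood cell markers, 3 of 4 listed, summed to 24918 to 32930 scaled reads in saline hearts and 16843 to 25433 in isoproterenol hearts, with 1 lower. The 2 smooth muscle markers summed to 223875 to 306812 scaled reads in saline hearts and 247316 to 354793 in isoproterenol hearts with no call, and the endothelial pair to 164976 to 194407 scaled reads in saline hearts and 148065 to 166945 in isoproterenol hearts with 1 lower. Both pancreas markers were not listed. Neither the fibroblast nor the white blood cell sums overlapped between groups, and their part in the changes of arms, clusters, hosts and seeds was not tested.

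Lower calls also included miR-200c-3p, an epithelial microRNA of low level in these hearts. miR-200c-3p read 40.1, 69.5 and 88.5 scaled reads in saline hearts (lowest, median and highest) and 9.14, 23.0 and 32.9 in isoproterenol hearts, without overlap (log2 fold change -1.53, SE 0.30, adjusted p = 0.00199). The 5 epithelial markers together summed to 66.4 to 117 scaled reads in saline hearts and 27.3 to 91.3 in isoproterenol hearts, which overlapped. miR-185-5p read 6817, 7320 and 7680 scaled reads in saline hearts (lowest, median and highest) and 4515, 4988 and 5380 in isoproterenol hearts, without overlap (log2 fold change -0.56, SE 0.06, adjusted p = 1.87e-05; -0.39 scaled to totals, still called).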

How the data were processed

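The authors deposited raw read counts per microRNA entry, per the file headers, and the 12 columns of saline and isoproterenol hearts were read with the commas between digits removed. Per the labels' protocols, RNA came from Qiagen miRNeasy extraction with a Bioanalyzer check, and the ACGT101-miR program removed adapters, junk, other small RNA families and repeats. Totals are therefore totals of listed entries. For the mapper, genome build and miRBase release, nothing was given in the sources used here. The 11 columns of normalized values and the second table were not used.

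Scaling factors were trimmed means of log ratios between libraries, with trims of 0.3 for ratios and 0.05 for levels. Entries with at least 10 scaled reads in 6 or more libraries were tested on log2(scaled reads + 1) using limma 3.58.1 (R 4.3.3) with its trend option; p-values were adjusted by Benjamini and Hochberg over all entries, and 0.05 was the threshold. A fold change is a difference of mean log2 values on this scale. For low entries it can lie above or below the log2 ratio of the group means. The design named a test by unit: since the deposited reads are written with commas, the unit check did not take them for counts, and count models were not run. Arm ratios were tested as log2 of 5p over 3p raw reads, each plus 1, by limma over all 95 pairs. Single values were tested by exact two-sided permutation of the 12 labels. The limma tests, not the permutation test, were checked on simulated reads with the same spread for all entries. The entry test called 46 of 58 entries changed 1.5-fold, 57 of 57 changed 2-fold and 7 of 240 unchanged. The arm-ratio test called 9 of 15 pairs changed 1.5-fold, 15 of 15 changed 2-fold and 2 of 67 unchanged. Python 3.11.15, numpy 2.4.6 and pandas 2.3.3 made the summaries.

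Of 528 mature entries, 456 matched the RefSeq table on GRCm38 by name and 424 had exactly 1 position; hosts are GENCODE vM21 genes on the same strand. Neighbours at most 10 kb apart form a cluster, and clusters of at least 3 tested entries are described. Of the tested entries, 83 had no single position and stand in no cluster or host count. Both listings of miR-92a-3p, whose reads are identical, were kept. The microRNAs named are arm pairs called, the 6 entries that gained and the 6 that lost most reads, up to 4 members of each cluster or host, up to 3 calls per direction and abundance class, up to 8 pairs per direction with both arms called, and a set of cardiac and blood cell microRNAs. That rule gave more entries than are printed: the 66 named with tests were selected after their values, and how well their calls held with libraries left out, had been seen, so stability is counted over all. Of the 66, 11 lie outside the rule: miR-208a-5p, miR-34a-5p, miR-433-3p, miR-378b, miR-378c, miR-378d, miR-455-5p, miR-455-3p, miR-30b-5p, miR-369-3p and miR-382-5p. No arm pair was called, so the arm pairs described were also chosen after their values were seen, and the count of entries with at least 10 reads was tried in 3 versions. The members and lists were chosen with earlier results of these data known. Nothing beyond the animal number describes a batch, and p-values measure the spread between these mice. Alternatives were other scalings, a pseudocount of 5, other read filters, voom weights, rank-sum tests, entries left out and each library left out. Reads carry no molecular identifiers, so small counts are less precise than counting error gives.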

Additional observations from a re-analysis of the deposited data

Results flagged for a closer look

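Values of 370 groups of 6 hearts were examined for a heart far from the others, over every entry the naming rule gave, and 16 held one, and chance alone marks about 1 in 20. Isoproterenol heart 951 stood apart in its miR-1a-3p share (28.3%, others 40.3% to 43.3%), in its share of reads outside the 10 most abundant entries (34.1%, others 25.9% to 28.96%) and in miR-29c-5p (140 scaled reads, others 174 to 192). Isoproterenol heart 958 was lowest for the miR-337 to miR-136 cluster (median log2 deviation 0.369, others 0.873 to 1.16), and saline heart 940 for the miR-450b to miR-322 cluster (-0.208, others 0.0148 to 0.106). Isoproterenol heart 948 was highest for miR-24-2-5p (2346 scaled reads, others 1902 to 1992) and miR-431-5p (41.9, others 10.3 to 18.5), and saline heart 947 listed miR-431-5p at 0 (others 5.27 to 7.69). Among chromosome 12 entries, isoproterenol heart 941 was highest for miR-376c-3p (26.5 scaled reads, others 11.2 to 16.4) and isoproterenol heart 954 lowest for miR-409-3p (16.4, others 25.3 to 30.1). Saline heart 950 was highest for miR-15b-5p (1113 scaled reads, others 626 to 682), isoproterenol heart 954 for miR-15a-3p (58.7, others 36.7 to 44.8) and isoproterenol heart 941 for miR-18a-5p (38.4, others 24.1 to 29.1), and isoproterenol heart 951 was lowest for miR-362-3p (136.3 scaled reads, others 222.4 to 273). For the log2 ratio of 5p to 3p, saline heart 947 stood apart in miR-330 (2.84, others 0.76 to 1.38) and saline heart 950 in miR-335 (1.54, others 0.81 to 1.07).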

How the results depend on the processing

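No paired analysis was possible because the replicate numbers are animal numbers, and saline and isoproterenol hearts share none. Entries called lower numbered 57, but 5 scaled to total listed reads and 26 scaled to totals without miR-1a-3p; the other alternatives gave 47 to 64 before any library was left out. Leaving out each library in turn gave 56 to 75 higher and 40 to 60 lower entries, 0 arm ratios called in either direction, and 19.5 to 26.1 more entries with at least 10 reads. The difference in total reads ranged from 244794 to 620212, that in the miR-1a-3p share from -4.75 to -1.13 percentage points, that outside the 10 most abundant entries from 1.71 to 3.48, and that in the passenger share from -0.316 to -0.187. The last passed its threshold without isoproterenol heart 948 only (-0.316). The share outside the 10 most abundant entries passed with miR-1a-3p left out and the 10 ranked anew among the remaining entries (2.35 percentage points). That is a different set of 10, so the value is not the same quantity as the share given above. The causes were not tested. miR-29a-3p turned positive scaled to totals (0.12) and to totals without miR-1a-3p (0.0317), and the miR-133a arm ratio ranged from -0.00556 (without saline heart 956) to 0.101 with each library left out. The naming rule and the entries added to it gave 87 calls, of which 58 held without each library in turn and 29 were lost without at least 1; scaled to totals 48 of 50 higher and 5 of 37 lower ones held. The calls printed above make up 57 of the 87, and 36 of them held without each library. No call changed sign under any alternative, but 23 uncalled estimates did, 22 of them not printed. For arm ratios, 8 of 95 intervals were wider than 2 log2 units in all. A gap of 50 kb gave 24 clusters in place of 22.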
